A study of Mus musculus with 53 samples.

Results

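Primitive endoderm (PrE) enhancers at promoters are chromatin regions that carried both histone marks of active enhancers in naive extra-embryonic endoderm (nEnd) cells, were no enhancer in pluripotent cells, and reached to 1 kb or less from an annotated gene start. An nEnd enhancer was a merged H3K27ac region with peaks of both nEnd libraries that overlapped, by at least 1 bp, a merged H3K4me1 region with peaks of both nEnd libraries. Of 7636 nEnd enhancers, 1452 (19%) overlapped no enhancer of 2iLIF or NACL cells defined in the same way and came within 1 kb of a GENCODE start site. The 1769 that met the first condition and lay farther from any start site are called distal PrE enhancers. A further 2910 nEnd enhancers lay at promoters and overlapped a 2iLIF or NACL enhancer, and are called shared promoter enhancers. The members were selected on H3K27ac and H3K4me1 in nEnd, 2iLIF and NACL and on their distance to a start site, so these values are given as a description. SOX2 and GATA6 peaks, the marks in KOSR cells and the DNA sequence were not used to choose them. Their number depended on 1 library above all, since 3265 regions met the rule without the second nEnd H3K4me1 library, whose list of 18627 peaks was shorter than the 42816 of the first.

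The data are CUT&RUN peak lists, in which an antibody directs a nuclease to a chromatin protein or mark and the released DNA is sequenced, and peaks were called in each library against an IgG control. All cells were SGGC mouse embryonic stem cells of clones B9 or B12, whose SOX2 is fused to GFP and whose GATA6 is fused to mCherry at the endogenous genes. They were grown in 2iLIF, a naive medium with inhibitors of MEK and GSK3 and the cytokine LIF, in NACL, a medium with Activin, a GSK3 inhibitor and LIF, as nEnd in RACL, an endoderm medium, or in KOSR, a serum replacement medium. KOSR cultures were sorted into cells positive for SOX2 alone (SOX2+) and double-positive (DP) cells with SOX2 and GATA6. There were 10 SOX2 libraries (2iLIF and NACL from clones B9 and B12, and SOX2+ and DP from experiments A, A1 and B), 5 GATA6 libraries (DP from A, A1 and B, and nEnd from B9 and B12), and 2 libraries of each mark in 2iLIF, NACL and nEnd. SOX2+ cells had 2 libraries of each mark, from A and B, and DP cells had 1, from A. The NACL group of the B12 SOX2 library rests on its title, since its source label names no medium. All KOSR libraries came from clone B12 and both nEnd H3K4me1 libraries from B9, so clone cannot be told apart from those groups. The labels do not say whether the experiments were separate cultures, so p-values measure the spread between libraries, which may be technical.

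The primitive endoderm is the extra-embryonic lineage that segregates from the epiblast in the inner cell mass of the blastocyst and later forms the visceral and parietal endoderm of the yolk sac. GATA6 is a zinc-finger transcription factor that drives this lineage, and SOX2 maintains the pluripotent epiblast. H3K27ac marks active promoters as well as active enhancers, whereas H3K4me1 is typical of enhancers and of the flanks of promoters, and can precede activation.

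GATA6 in nEnd peaked inside most members, and 6 windows of 100 bases to either side of its strongest maximum in the B12 library are printed to show what lies there. The sequence is that of RefSeq's GRCm38.p6, on the plus strand. Capitals mark AGATAA, a string recognised by GATA factors, on either strand. Msx2 and Lrp2 were picked by rule as listed PrE genes with SOX2 and GATA6 peaks in at least 2 DP libraries each. The other 4 were chosen after their values were seen. Gata4 and Foxa2 are endoderm transcription factor genes, and Zdhhc3 and Pdcd6ip had SOX2 and GATA6 peaks in every DP library.
Msx2, chr13:53470853-53471053: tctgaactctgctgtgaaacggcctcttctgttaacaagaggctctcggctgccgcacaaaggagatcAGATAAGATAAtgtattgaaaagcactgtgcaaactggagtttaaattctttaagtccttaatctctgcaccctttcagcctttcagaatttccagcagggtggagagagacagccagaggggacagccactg
Zdhhc3, chr9:123120342-123120542: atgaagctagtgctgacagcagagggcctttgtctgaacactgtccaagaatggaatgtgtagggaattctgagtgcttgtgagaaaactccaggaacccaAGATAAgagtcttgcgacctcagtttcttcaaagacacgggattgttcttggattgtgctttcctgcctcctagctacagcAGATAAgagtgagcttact
Gata4, chr14:63231202-63231402: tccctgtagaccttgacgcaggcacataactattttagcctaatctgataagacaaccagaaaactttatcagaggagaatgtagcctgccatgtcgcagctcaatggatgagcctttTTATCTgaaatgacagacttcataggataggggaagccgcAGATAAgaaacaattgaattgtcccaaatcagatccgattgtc
Lrp2, chr2:69582865-69583065: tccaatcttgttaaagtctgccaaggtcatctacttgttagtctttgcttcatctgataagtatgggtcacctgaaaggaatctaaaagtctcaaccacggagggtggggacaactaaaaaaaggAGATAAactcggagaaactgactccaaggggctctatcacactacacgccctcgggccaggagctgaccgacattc
Pdcd6ip, chr9:113657713-113657913: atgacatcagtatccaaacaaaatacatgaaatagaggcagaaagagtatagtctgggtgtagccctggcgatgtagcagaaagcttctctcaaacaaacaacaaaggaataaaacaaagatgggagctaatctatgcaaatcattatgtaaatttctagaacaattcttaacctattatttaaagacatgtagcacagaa
Foxa2, chr2:148013477-148013677: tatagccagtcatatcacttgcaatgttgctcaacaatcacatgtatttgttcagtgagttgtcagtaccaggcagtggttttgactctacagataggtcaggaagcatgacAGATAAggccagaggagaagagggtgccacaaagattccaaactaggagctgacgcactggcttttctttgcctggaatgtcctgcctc

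The Msx2 window, in an intron of the gene 2121 bp from the start site that names the member, holds AGATAA 2 times in overlapping copies. The Gata4 window, in an intron 13946 bp from the naming start site, holds it 2 times, once on each strand. The Zdhhc3 window holds it 2 times and lies at -7237 bp from the naming start site of Zdhhc3, in an intron of the neighbouring gene Exosc7. The Lrp2 window, in an intron 3064 bp from the naming start site, holds it 1 time. The Foxa2 window holds it 1 time and lies in an intron of the long noncoding gene 9030622O22Rik. The Pdcd6ip window, in an intron of a longer transcript of the gene at -519 bp from the naming start site, holds none. CATTGT, a string recognised by SOX factors, is in none of these 6 windows on either strand. Of the members with peaks of both factors in every DP library whose windows are not printed, that of Gm38020 holds CATTGT 2 times and AGATAA 1 time, and that of Acp5 holds AGATAA 2 times and no CATTGT.

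Members were wide regions rather than narrow promoter peaks. Their median width was 8746 bp (from 1719 to 93888 bp, 16.9 Mb in all), compared with 5375 bp for distal PrE enhancers and 16336 bp for shared promoter enhancers. A start site lay inside 1338 members (92.1%). Just inside the limit, 27 members came within 751 to 1000 bp of a start site, with a median width of 5796 bp, and just outside it 18 regions lay at 1001 to 1250 bp, with a median width of 5792 bp. The strongest nEnd H3K27ac maximum was within 1 kb of the naming start site in 651 members (44.8%), with a median distance of 1308 bp. A member could therefore reach a start site while its strongest acetylation lay elsewhere in the region.

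The members held start sites of 2025 genes, of which 1373 were protein-coding, 130 lincRNA, 129 antisense and 56 miRNA genes. Start sites of a protein-coding gene were found at 1209 members (83.3%), start sites of no more than 1 gene at 980 (67.5%), and pairs of divergent protein-coding genes with starts within 1000 bp of each other at 98 (6.75%). They occurred on every autosome, with 40 on chromosome X and 0 on chromosome Y. Among gene families, 5 of 44 Fox genes (11.4%) had a member, namely Foxa2, Foxa3, Foxj3, Foxk1 and Foxq1. So did 8 of 69 Rab genes of vesicle traffic (11.6%) and 23 of 343 solute carriers (6.71%). Of 53 keratin genes, 3 had one (5.66%), which were Krt13, Krt18 and Krt19. The 19 Sox, 39 Hox and 33 claudin genes had none. Among all protein-coding genes the share was 6.25%. Families this small cannot set a count of 0 apart from that share, and none was tested.

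Genes of the PrE programme fell into members, shared promoter enhancers and genes with neither at their start sites. Neither was found for 6 of 17 PrE transcription factor genes, 5 of 20 basement membrane genes, 8 of 20 endocytosis and transport genes, 13 of 20 receptor and FGF/ERK genes, 10 of 15 anterior and visceral endoderm genes and 7 of 18 epithelial genes. Of all 21911 protein-coding genes, 6.25% had a member and 13.6% a shared promoter enhancer, which is the background for the counts that follow. Of 17 PrE transcription factor genes, 7 (41.2%) had a member, among them Gata4, Foxa2, Hnf4a, Foxq1, Msx2 and Creb3l1, and 4 had a shared promoter enhancer, among them Gata6. Of 20 endocytosis and transport genes, 6 (30%) had a member, among them Lrp2, the endocytic receptor megalin, Amn, the partner of cubilin, and Ttr, the thyroxine carrier transthyretin. Members were present at 6 of 18 epithelial genes (33.3%): the keratins Krt18 and Krt19, the tight junction genes Tjp1 and Ocln, and the polarity genes Pard6b and Prkcz. Basement membrane genes had 4 of 20 (20%) at members (Nid2, P4ha2, Plod2 and Itgb1) and 11 of 20 (55%) at shared promoter enhancers, so the laminin and type IV collagen genes Lama1 and Col4a1 fell outside the members. Of 20 growth factor receptor and FGF/ERK genes, the PrE receptor gene Pdgfra was the 1 with a member (5%), and 3 of 15 anterior and visceral endoderm genes (20%) had one (Dkk1, Bmp2 and Pth1r).

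The other lists had at most 1 gene each at a member. No member lay at the 17 pluripotency genes, the 10 neural genes or the 12 housekeeping genes, of which 7 (41.2%), 0 and 4 (33.3%) had a shared promoter enhancer. The trophoblast gene Elf5 (1 of 10) and the mesoderm gene Tbx6 (1 of 8) each had a member. All of these lists are short, and their counts are given as a description with no test. Checked against markers, the nEnd enhancers at promoters included Gata4, Foxa2 and Pdgfra as members and Gata6, Dab2, Lama1 and Col4a1 as shared, while Sox17 and Sox7 had none at their start sites. The regions with the greatest width were those of Chst15 (93888 bp), Gata4 (82180 bp), Lrrfip1 (74802 bp), Foxa2 (74616 bp) and Ehd4 (72799 bp).

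In each of 2iLIF and NACL, most members overlapped an H3K27ac region of both libraries, and few overlapped an H3K4me1 region of both. H3K27ac regions with peaks of both libraries (kept regions) overlapped 1021 members (70.3%) in 2iLIF and 1067 (73.5%) in NACL, whereas H3K4me1 regions of both libraries overlapped 58 (3.99%) and 61 (4.2%). Over all nEnd enhancers, such regions were present at 81.5% and 81.8% for H3K27ac and at 53.5% and 47.3% for H3K4me1. Single libraries differed widely in H3K4me1, with peaks at 5.65% (2iLIF B9), 39.4% (2iLIF B12), 28.4% (NACL B9) and 12.2% (NACL B12) of members, so the low share with peaks of both libraries does not mean that H3K4me1 was missing from each. In 1112 members (76.6%) there was an H3K27ac region of both libraries in at least 1 of the media and no H3K4me1 region of both libraries in either. The rule fixes that the marks did not meet in an enhancer there, but not which of them was missing. Distal PrE enhancers had such H3K27ac regions less widely, at 48.3% in 2iLIF and 48.5% in NACL, but they are narrower than members. H3K27ac maxima per Mb averaged 200 at members against 197 at distal PrE enhancers in 2iLIF, and 168 against 159 in NACL. The H3K27ac lists of these media were long, with 210904 to 401853 peaks, and the H3K4me1 lists short, with 24700 to 52599 peaks. A longer list can overlap more regions by its length alone, and the part of list length in these shares was not tested. With any H3K27ac peak of any of the 4 libraries counted, 44 members had none.

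A group of 287 members (19.8%) had no H3K27ac region of both libraries in either medium. It held 7 of the 29 listed genes at members, namely Krt18, Krt19, Amn, Msx2, Bmp2, Dkk1 and Pth1r, whereas other endoderm genes such as Gata4, Foxa2, Lrp2 and Pdgfra had such a region in both media. These 287 were narrower than the 923 members with kept H3K27ac in both media (median 6731 bp compared with 9967 bp), and their promoters differed in sequence. RefSeq promoter windows ran from 250 bases before to 50 bases after a start. They held a median of 8 CpG dinucleotides at members with kept H3K27ac in neither medium (202 promoters, quartiles 5 and 16). The median was 13 at members with kept H3K27ac in 1 medium (150 promoters) and 21 at members with it in both (931 promoters, quartiles 12 and 28). Over all 32851 RefSeq promoters it was 7, and at shared promoter enhancers 21. AGATAA was in 10.9% of the promoters at members with kept H3K27ac in neither medium, 6.23% of those with it in both, and 11.2% of all promoters.

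**Figure D1:**
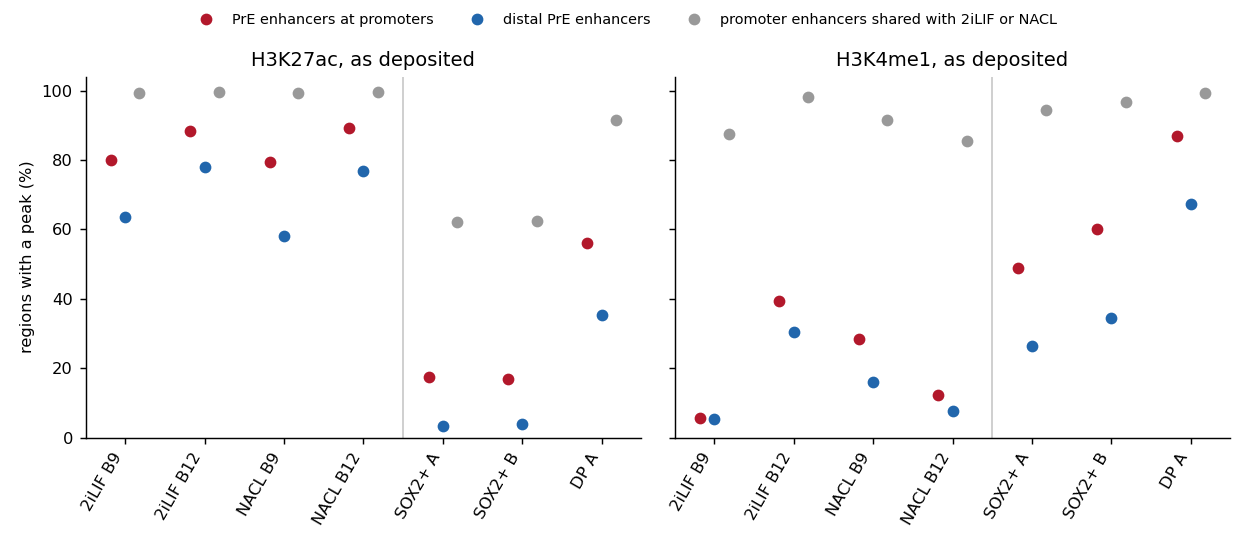
Percentage of regions with a peak of H3K27ac (left) and H3K4me1 (right) in each 2iLIF, NACL, SOX2+ and DP library, for PrE enhancers at promoters (red), distal PrE enhancers (blue) and shared promoter enhancers (grey), with the peak lists as deposited; the 4 libraries left of the grey line, with those of nEnd, chose the members. Members carried H3K27ac in 17.5% and 16.9% of cases in the SOX2+ libraries and in 56% in the DP library, and H3K4me1 in 49%, 60.1% and 86.8%.

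In KOSR, members carried both marks more often in DP than in SOX2+ cells, by an amount that depended on the lengths of the peak lists. H3K4me1 peaks were present at 49% (SOX2+ A) and 60.1% (SOX2+ B) of members and at 86.8% in DP. H3K27ac peaks were present at 17.5% (SOX2+ A), 16.9% (SOX2+ B) and 56% (DP). The DP lists were much longer, with 130749 H3K4me1 peaks against 58085 and 78354, and 76260 H3K27ac peaks against 13514 and 14722. With the strongest peaks taken in equal numbers, H3K4me1 was present at 49%, 48.3% and 63.4% of members and H3K27ac at 17.5%, 16.3% and 22.2%. DP had 1 library of each mark, so no test was made, and read depth is unknown. A mark in fewer cells and a weaker mark in all cells cannot be told apart in such pooled material.

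Within experiment A, and with equal peak numbers, 621 members had H3K4me1 in both populations, 299 in DP alone, 91 in SOX2+ alone and 441 in neither. For H3K27ac the corresponding numbers were 196, 126, 58 and 1072. H3K4me1 peaks in both SOX2+ libraries were found at 656 members (45.2%), against 66.6% of all nEnd enhancers and 23.7% of distal PrE enhancers. H3K27ac peaks in both SOX2+ libraries were found at 187 members (12.9%), against 29.3% of all nEnd enhancers and 2.2% of distal PrE enhancers. In the DP library, 1261 members (86.8%) had H3K4me1 and 813 (56%) had H3K27ac, against 89.3% and 69% of all nEnd enhancers. Members lay below the nEnd average for each of these calls and above distal PrE enhancers, which are narrower. Per Mb of region, DP maxima at members and distal PrE enhancers were 179 and 157 for H3K4me1 and 92 and 80.3 for H3K27ac. In SOX2+ the means were 72.9 and 54.2 for H3K4me1 and 17.1 and 6.2 for H3K27ac.

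The marks in DP cells were more frequent at members where GATA6 was already bound in DP. GATA6 peaks in at least 2 of the 3 DP libraries were present at 123 members. With equal peak numbers, 42.3% of these had DP H3K27ac, compared with 20.3% of the other 1329 members. The gap between the same regions was smaller in the sister SOX2+ cells, where H3K27ac was present at 22.8% against 17% (A) and 20.3% against 16% (B). For H3K4me1 the shares were 84.6% against 61.4% in DP, 51.2% against 48.8% in SOX2+ A and 46.3% against 48.5% in SOX2+ B. In each of 4 equal groups of members by width, DP H3K27ac as deposited was more frequent with DP GATA6 than without, from 68.2% against 39.3% in the narrowest to 87% against 71.6% in the widest group. Distal PrE enhancers showed the same direction with equal peak numbers, at 28.9% with DP GATA6 against 3.92% without for H3K27ac and 77.5% against 39.3% for H3K4me1. Distal regions with DP GATA6 also had higher shares in SOX2+ cells, at 6.42% against 2.97% (A) and 6.95% against 3.16% (B) for H3K27ac, and at 36.9% against 25% (A) and 39% against 25.4% (B) for H3K4me1. These are shares of regions in 1 DP library of each mark and were not tested.

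GATA6 peaks at members were far more frequent in nEnd than in DP. In nEnd, 67.8% (B9) and 77.1% (B12) of members had a GATA6 peak, and in DP 16.7% (A), 8.88% (A1) and 3.72% (B). The title of the DP GATA6 library A ends in sub02, which may stand for subsampled reads and is not explained in the sources used here. The DP and nEnd libraries did not overlap, but their lists differed in length, with 1391 to 8316 peaks in DP and 24223 and 32510 in nEnd. As a share of each library's own peaks, 3.46%, 3.95% and 4.24% of the DP peaks lay at a member, compared with 7.39% and 7.32% of the nEnd peaks (3.89% ± 0.393, SD, n = 3, against 7.36% ± 0.0494, n = 2). The difference was -3.47 percentage points, and -5.34 with equal peak numbers. It is given as a description, because the members had to be enhancers in nEnd and in no pluripotent medium, and because 0.2 is the smallest exact permutation p of 3 against 2 libraries. The ratio of the DP to the nEnd mean was 0.528 at members, 0.583 at distal PrE enhancers, 0.801 at shared promoter enhancers and 1.08 at distal enhancers shared with 2iLIF or NACL.

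Most GATA6-bound members in nEnd had not reached the DP call. GATA6 peaks in both nEnd libraries were found at 945 members (65.1%), against 69.1% of all nEnd enhancers and 79.8% of distal PrE enhancers. GATA6 peaks in at least 2 DP libraries were found at 123 members (8.47%), against 13.6% of all nEnd enhancers. Of these 123, 120 also had GATA6 in both nEnd libraries. A further 825 members had GATA6 in both nEnd libraries without the DP call, and 504 had neither. Where DP GATA6 bound, it did so at nearly the position used in nEnd, since 89.6%, 96% and 94.9% of the DP maxima at members (A, A1 and B) lay within 100 bp of an nEnd GATA6 maximum.

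SOX2 was present at a small part of the members in every condition. Peaks were found at 6.61% (B9) and 4.75% (B12) of members in 2iLIF, and at 16.1% and 9.64% of members in NACL. In KOSR they were found at 12.2% (A), 16.9% (A1) and 7.92% (B) in the SOX2+ libraries, and at 5.99% (A), 7.23% (A1) and 1.38% (B) in the DP libraries. The DP libraries were low in this measure and had the shortest lists, with 4859 (A), 5320 (A1) and 1378 (B) peaks, compared with 8203 to 29623 in the 7 pluripotent libraries. The SOX2 comparisons of DP with pluripotent cells that follow share this difference in list length, whose part in them was tested only where equal peak numbers are named. By the call of at least 2 of 3 libraries, 163 members (11.2%) had SOX2 in SOX2+ and 71 (4.89%) in DP, against 25.2% and 12.5% of all nEnd enhancers. Peaks in both libraries were found at 63 members (4.34%) in 2iLIF and 122 (8.4%) in NACL, against 14.2% and 23.8%. Members lay below the nEnd average in each case. The plot of peak presence by library shows higher SOX2 values at shared promoter enhancers in all 10 libraries.

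**Figure D2:**
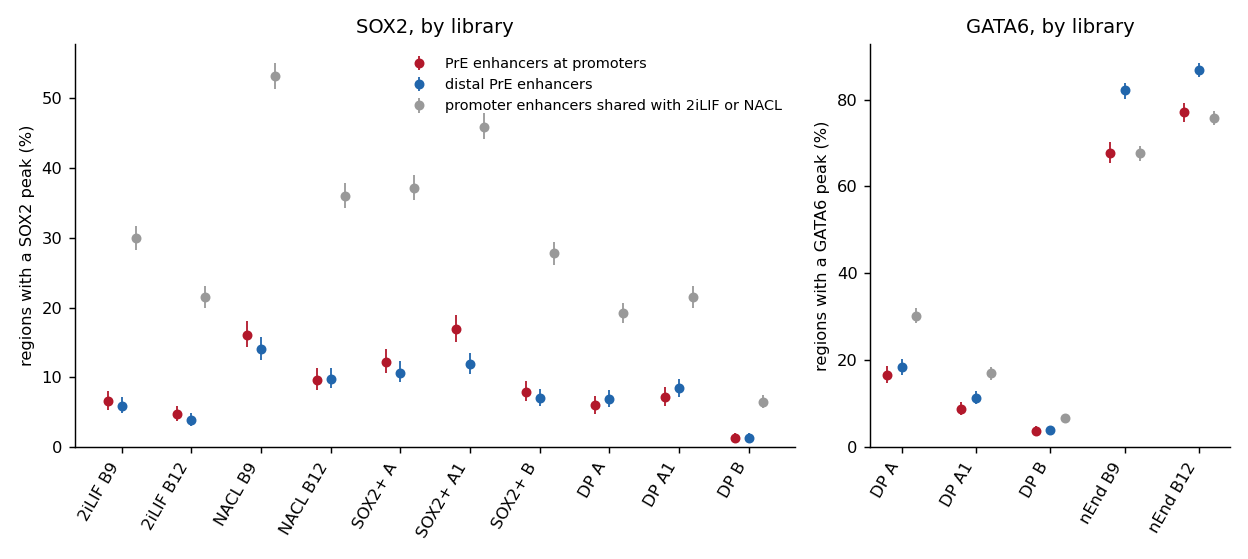
Percentage of regions with a SOX2 peak (left, 10 libraries) and a GATA6 peak (right, 5 libraries) for PrE enhancers at promoters (red), distal PrE enhancers (blue) and shared promoter enhancers (grey); bars are 95% Clopper-Pearson intervals, which cover counting error over regions only. The SOX2 values of members run from 1.38% to 16.9%, and their GATA6 values from 3.72% in DP B to 77.1% in nEnd B12.

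As a share of each library's own peaks, SOX2 at members had a higher mean in DP than in the 7 pluripotent libraries, a difference that did not pass after adjustment. By the rule, members could be no enhancer of 2iLIF or NACL, the media of some of these 7 libraries. This selection can lower the SOX2 share of those libraries at members, and the test does not allow for it. The shares were 2.02% (A), 2.16% (A1) and 1.45% (B) in DP, compared with 0.782% (B9) and 0.939% (B12) for 2iLIF, 0.955% and 0.976% for NACL, and 1.22%, 1.47% and 1.23% for SOX2+ A, A1 and B. DP A and A1 lay above every pluripotent library, while DP B lay just below SOX2+ A1. The means were 1.88% ± 0.375 (SD, n = 3) and 1.08% ± 0.233 (n = 7), a difference of 0.795 percentage points (exact permutation p = 0.0333, 2-sided, adjusted p = 0.1 over 3 comparisons). With equal peak numbers the difference was 1.05 percentage points (exact p = 0.0167). Without the NACL B12 library, whose medium is named in its title alone, the difference was 0.778 percentage points (exact p = 0.0476). Within clone B12 the difference was 0.71 percentage points (exact p = 0.0714). Restricted to the 287 members without kept H3K27ac in 2iLIF or NACL, it was 0.0584 percentage points (exact p = 0.2), with mean shares of 0.182% and 0.123% at this smaller set and a ratio of 1.47. Without the B9 library of H3K4me1 in 2iLIF, which redefined the members, it was 0.446 percentage points (exact p = 0.0167).

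A higher DP share was seen in every class of nEnd enhancer. The ratio of the DP to the pluripotent mean was 1.74 at members, 2.33 at distal PrE enhancers, 1.52 at shared promoter enhancers and 1.91 at distal enhancers shared with 2iLIF or NACL (exact p = 0.0333, 0.0167, 0.0167 and 0.0167, not adjusted). Counted only among the peaks of a library that lay at any nEnd enhancer, members took 7.05%, 7.12% and 4.76% of the DP peaks and from 4.77% to 7.7% of those of the pluripotent libraries, a difference of 0.206 percentage points (exact p = 0.783). Against SOX2+ alone, the DP share was higher by 0.571 percentage points (exact permutation p = 0.2, adjusted p = 0.2, smallest possible 0.1). Among peaks at nEnd enhancers this difference turned to -0.606 percentage points (exact p = 0.7), and for the 287 members without kept H3K27ac it was 0.0204, with mean shares of 0.182% and 0.161%. Over all peaks, the DP share was higher in each experiment, by 0.792 (A), 0.696 (A1) and 0.224 (B) percentage points.

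SOX2 and GATA6 met at part of the DP sites. Within experiments A, A1 and B, 57.1%, 40.9% and 20% of the 98, 115 and 20 DP SOX2 peaks at members overlapped a DP GATA6 peak, compared with 30.2%, 20.4% and 8.25% of the DP SOX2 peaks outside nEnd enhancers. At distal PrE enhancers the shares were 59%, 54.5% and 16.7%, with the widest gap to members in A1 and only 24 peaks in B. A SOX2 peak of SOX2+ cells from the same experiment overlapped 59.2%, 60.9% and 80% of the DP SOX2 peaks at members, and 79.5%, 83.5% and 96.3% of those outside nEnd enhancers. Both factors were each called in at least 2 DP libraries at 33 members, against 483 (6.33%) of all nEnd enhancers. No peak of either factor in any DP library was found at 1152 members. The same count over all nEnd enhancers is not given here, so whether that number is high for nEnd enhancers is not shown.

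The GATA string was more frequent under the SOX2 maxima of DP cells than under those of pluripotent cells. AGATAA was in 46.9% (A), 48.7% (A1) and 30% (B) of the windows of 100 bases to either side of DP SOX2 maxima at members, compared with 15% to 22.5% in the 7 pluripotent libraries, and these ranges did not overlap. The same string was in 74%, 76.2% and 84.7% of the windows around DP GATA6 maxima and in 54.9% and 51.4% of those in nEnd. CATTGT, searched on both strands and counted separately, was in 39.8%, 36.5% and 35% of the DP SOX2 windows and in 32.7% to 44.5% of the pluripotent ones, where the ranges did overlap. Over all peaks of the libraries, AGATAA was in 29.1%, 29.8% and 19.3% of DP SOX2 windows and in 10.8% to 12% of pluripotent ones. At members more than 1 kb from a start site it was in 57.1% (A) and 57.7% (A1), and nearer than that in 28.6% and 29.7%. Such matches describe letters in a window and are not evidence of binding.

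The DP SOX2 maxima also lay closer to nEnd GATA6 maxima. Of those at members, 69.4% (A), 74.8% (A1) and 55% (B, 20 maxima) lay within 100 bp of an nEnd GATA6 maximum, compared with 45.5% to 51.2% in the 7 pluripotent libraries. The median distances were 47, 35 and 49.5 bp in DP and 86.5 to 152 bp in the pluripotent libraries. Other classes showed the same direction, with 62.5% to 78.4% in DP against 43.3% to 55.5% at distal PrE enhancers, and 55.2% to 58.3% against 28.3% to 35.3% at shared promoter enhancers. This was a description and was not tested.

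**Figure D3:**
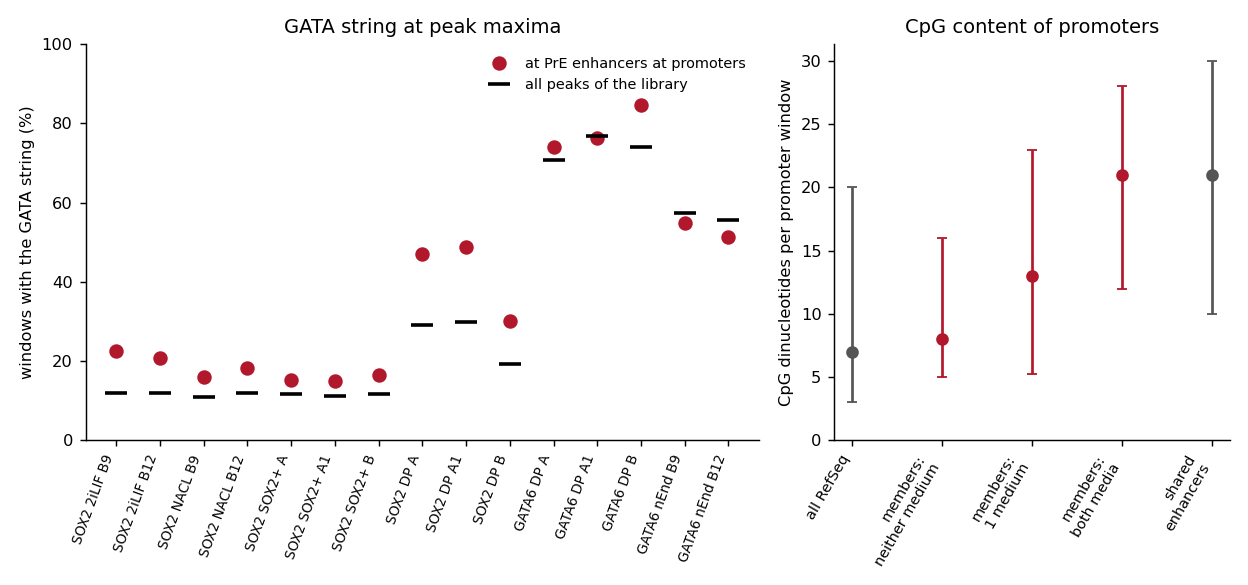
Left, percentage of windows of 100 bases to either side of peak maxima that hold the GATA string on either strand, for maxima at PrE enhancers at promoters (red points) and for all peaks of each library (black bars); DP SOX2 libraries lie at 30% to 48.7% at members, above the pluripotent SOX2 libraries at 15% to 22.5%. Right, CpG dinucleotides per 300-base RefSeq promoter window (median with quartiles) by the number of media in which the member carried kept H3K27ac, with medians of 8, 13 and 21, beside all RefSeq promoters and shared promoter enhancers.

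SOX2 maxima were less dense along members than along distal PrE enhancers, and GATA6 densities had the same direction in a test that 5 libraries cannot pass. SOX2 maxima per Mb of region were fewer at members in 10 of 10 libraries, for example 16.6 against 23.3 in NACL B9, 12.1 against 18.1 in SOX2+ A and 5.8 against 11.4 in DP A. The mean difference was -4.58 maxima per Mb ± 2.18 (SD, n = 10; exact sign-flip p = 0.00195, 2-sided, the smallest possible, adjusted p = 0.00391 over 4 comparisons). The same regions were read in every library, so the p-value covers libraries and not regions. With equal peak numbers the difference was -0.892 per Mb (exact p = 0.00391). For GATA6 the density was lower in 5 of 5 libraries, with 106 against 191 maxima per Mb in nEnd B9 and 17 against 31.8 in DP A (mean difference -42.4 ± 45.9, SD, n = 5; exact sign-flip test, 2-sided, adjusted p = 0.0833 with the unadjusted p at the smallest that 5 libraries allow). With equal peak numbers the difference was -9.13 per Mb. Members are wider, and the share of regions with a SOX2 peak did not follow the density, being 0.843 percentage points higher at members on average (exact p = 0.158). With both classes restricted to regions without kept H3K27ac in the media, 287 members against 690 distal PrE enhancers, the SOX2 density difference was -0.579 per Mb (exact p = 0.293). Mean densities over the 10 libraries were then 6.96 and 7.54 maxima per Mb, compared with 8.82 and 13.4 for all members and all distal PrE enhancers. It was -2.55 per Mb (exact p = 0.00586) without the B9 library of H3K4me1 in 2iLIF.

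Within the members, SOX2 lay nearer to start sites than the bases of the regions did, whereas no such difference was detected for GATA6. Bases within 1 kb of a start site made up 26.5% of the members. Of the SOX2 maxima at members, 40.2% and 41.6% were within 1 kb of a start site in 2iLIF, and 50.2% and 41.8% in NACL. The shares were 39.5%, 46% and 35.2% for SOX2+ A, A1 and B, and 35.7%, 32.2% and 40% for DP A, A1 and B. All 10 values lay above the share of bases, by a mean of 13.7 percentage points ± 5.25 (SD, n = 10; exact sign-flip p = 0.00195, adjusted p = 0.00391). With equal peak numbers the mean was 7.03 percentage points (exact p = 0.0371). For GATA6 the shares were 27.8%, 23.2% and 25.4% in DP and 27.4% and 31% in nEnd, on both sides of the share of bases (mean difference 0.446 percentage points ± 2.91, SD, n = 5; exact sign-flip p = 0.688). Introns more than 1 kb from a start site held 43.1% and 42.4% of the DP GATA6 maxima (A and A1). The excess near start sites was 9.46 percentage points in DP and 15.6 in pluripotent libraries, a difference with an exact permutation p of 0.1.

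**Figure D4:**
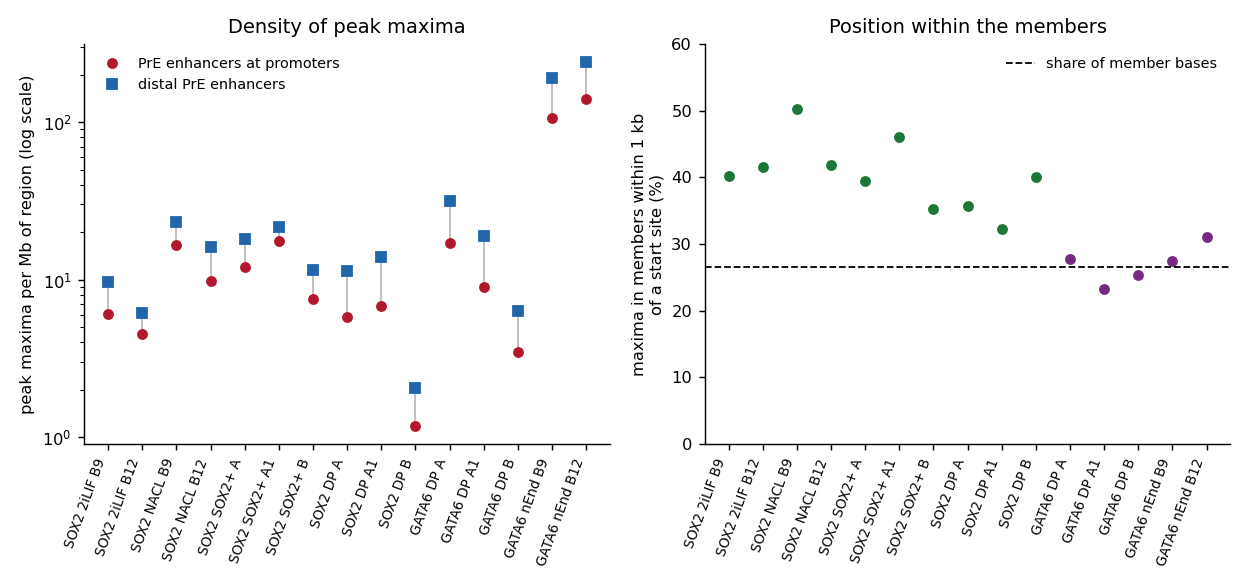
Left, peak maxima per Mb (log scale) at PrE enhancers at promoters (red circles) and distal PrE enhancers (blue squares) in each library; the member value is the lower in all 15 libraries. Right, percentage of the maxima inside members that lie within 1 kb of a start site, for SOX2 (green) and GATA6 (purple), with the share of member bases there (26.5%) as a dashed line; all 10 SOX2 values and 3 of 5 GATA6 values lie above it.

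At PrE transcription factor genes, GATA6 peaks in nEnd were frequent, as over all members, and SOX2 peaks were found at Gata4 and Msx2 alone. The Foxa2 member, whose gene encodes a pioneer factor of endoderm, held 14 (B9) and 19 (B12) nEnd GATA6 maxima and no peak of either factor in any of the other 13 libraries. The Gata4 member held 10 nEnd GATA6 maxima in each clone, DP GATA6 peaks in A and A1, and a DP SOX2 peak in A1, with no SOX2 peak in the 7 pluripotent libraries. Of its 3 (A) and 2 (A1) DP GATA6 maxima, the nearest lay 18 bp and 34 bp from the centre of the window printed above, and its DP SOX2 maximum 42 bp from it. At the Msx2 member, which encodes a homeobox factor, GATA6 and SOX2 peaked in DP A and A1 and neither in B, and the pluripotent libraries had no SOX2 peak. The DP SOX2 maxima there lay 7 bp (A) and 37 bp (A1) from the window's centre, and the DP GATA6 maxima 20 bp and 27 bp. Hnf4a, Foxq1 and Creb3l1 had nEnd GATA6 peaks, in both libraries for Hnf4a and Creb3l1 and in B12 alone for Foxq1, and no DP peak of either factor.

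Lrp2 was the listed gene with the broadest occupancy. Its member (chr2:69570631-69586768, 16138 bp) had GATA6 in all 3 DP and both nEnd libraries and SOX2 in all 3 DP, all 3 SOX2+ and 3 of the 4 2iLIF and NACL libraries. The DP GATA6 maxima lay 5 (A), 14 (A1) and 17 bp (B) from the centre of the printed window. The SOX2 maxima nearest to that centre lay 237, 112 and 96 bp away in SOX2+ A, A1 and B, whereas the DP libraries had a single SOX2 maximum each, 8165, 8160 and 8172 bp away. The DP SOX2 maxima thus lay away from this centre, at a position of the same member where SOX2 in 2iLIF B12 also peaked (8162 bp away). SOX2+ A, A1 and B had 5, 4 and 3 SOX2 maxima in the member. Only the nearest of them was measured, so whether SOX2+ cells also peaked at that position is not shown. H3K27ac peaks were present at Lrp2 in DP and in both SOX2+ libraries.

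The other listed genes had few factor peaks in DP. At Pdgfra, SOX2 peaked in 3 of the 4 2iLIF and NACL libraries and in SOX2+ A1, GATA6 in DP A and both nEnd libraries, and DP SOX2 in no library. The DP A GATA6 peak was among the weakest of its library, at percentile 0.289. The SOX2 peaks stood at percentiles 54.9 (2iLIF B9), 2.35 (2iLIF B12), 27.4 (NACL B9) and 4.37 (SOX2+ A1). Plod2, a lysyl hydroxylase of collagen, had SOX2 in both NACL libraries, SOX2+ A and A1 and DP A1, and GATA6 in DP A (percentile 1.56) and nEnd. Krt18 had GATA6 in DP A1 and nEnd, and Krt19, Ocln and Pard6b had GATA6 in nEnd and no peak of either factor in DP. No factor peak was found in any library at Itgb1, Amn, Soat2, Bmp2 and Prkcz. Of these, Itgb1 had H3K27ac in both SOX2+ libraries and in DP.

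The 5 members with both factors in all 6 DP libraries were those of Gm38020, Acp5, Zdhhc3, Pdcd6ip and Lrp2, of 98 nEnd enhancers with this pattern. The Acp5, Pdcd6ip and Gm38020 members also had SOX2 peaks in all 7 pluripotent libraries, though not always at the site used in DP. At Gm38020, the DP SOX2 maxima nearest to the centre of its window lay 26 to 106 bp away. The nearest pluripotent one lay 50 bp away in SOX2+ A and 27280 to 27365 bp away in the other libraries. At Pdcd6ip, SOX2+ B and 2iLIF B12 had theirs 13204 and 13223 bp from the window's centre. Zdhhc3, which encodes a palmitoyltransferase, had none in those 7, and its DP SOX2 maxima lay 94 (A), 102 (A1) and 5 bp (B) from the centre of the printed window, which holds AGATAA 2 times. At Pdcd6ip, which encodes the endosomal sorting protein ALIX, the DP SOX2 maxima lay 85, 69 and 63 bp and the DP GATA6 maxima 97, 91 and 86 bp from the centre of the printed window, which holds no AGATAA. The Gm38020 member overlaps the long noncoding gene Ftx, and its strongest nEnd GATA6 maximum lies in an intron of Ftx.

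**Figure D5:**
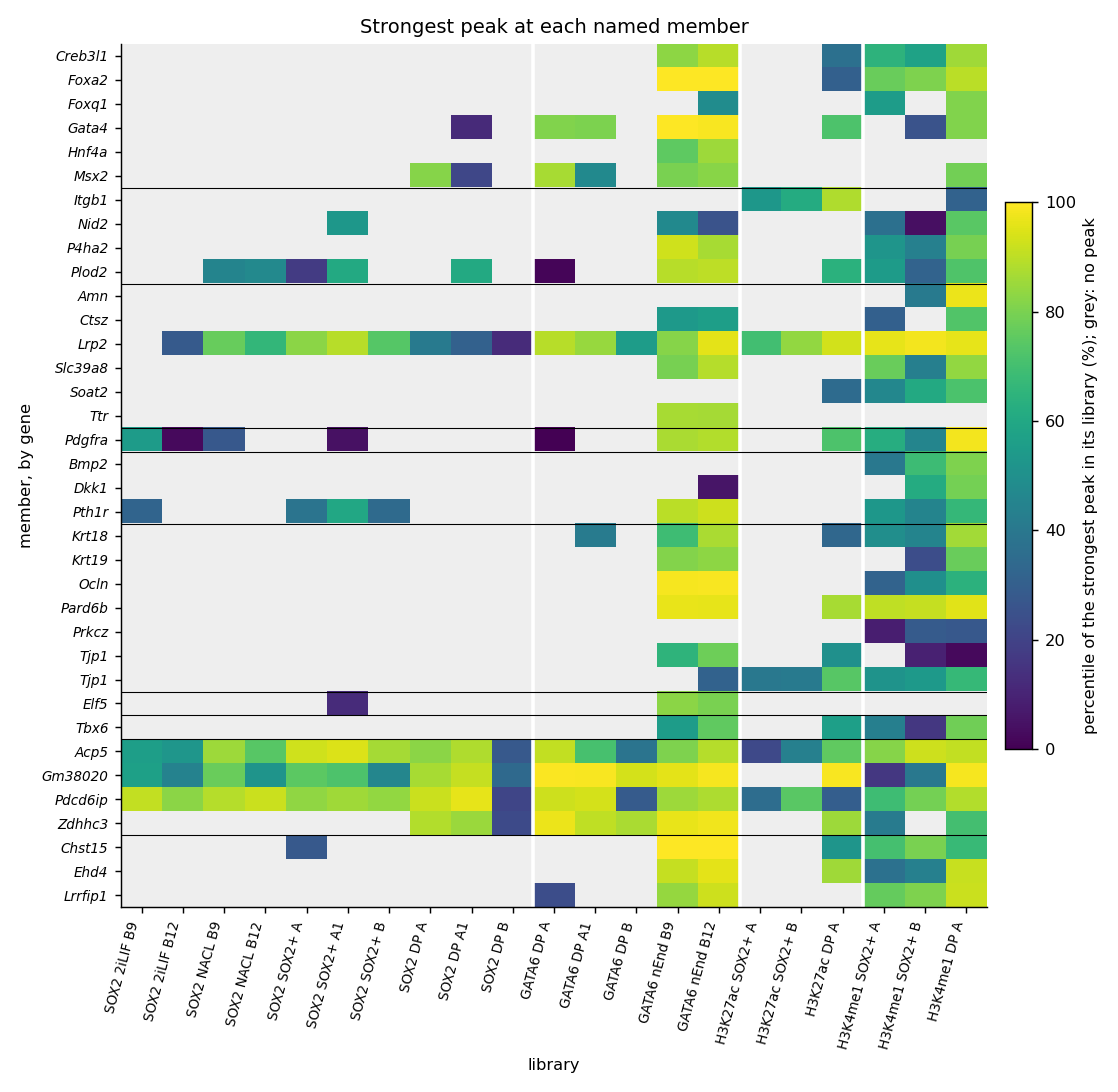
Percentile, within its own library, of the strongest peak at each named member (rows) in the SOX2, GATA6 and KOSR histone libraries (columns); grey means no peak, percentiles are not comparable between columns because the lists differ in length, and black lines separate, from the top, transcription factors, basement membrane, endocytosis, receptor, anterior and visceral endoderm, epithelial, trophoblast and mesoderm genes, members with both factors in all 6 DP libraries, and the members chosen for width. Most rows are filled in the 2 nEnd GATA6 columns and empty in the SOX2 columns, while Lrp2, Acp5, Gm38020 and Pdcd6ip are filled in nearly all.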

How the data were processed

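Peak lists of 33 libraries were used, 1 per library. The labels and methods describe trimming with cutadapt 1.18, alignment to mm10 with Bowtie2 2.3.4.1 and handling with SAMtools 1.9, Picard 2.9.1, bedtools 2.27.1 and deepTools 3.2.0. Per the labels and methods, the authors then called peaks with SEACR, with no version stated in the labels or methods. The deposited values are the total and maximum coverage signal of each peak on the scale of its own library. Signals were therefore ranked only within a library, as percentiles. Lists are named as relaxed for histone marks and stringent for factors, whereas the methods state the reverse. Read depth is unknown, and list lengths ranged from 1378 to 401853 peaks.

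Peaks were intersected with at least 1 bp of overlap and compared with 132629 GENCODE M21 start positions, in Python 3.11.15 with numpy 2.4.6, scipy 1.17.1 and matplotlib 3.10.9. A peak maximum was the centre of its highest interval. Libraries were the units of exact permutation tests and exact sign-flip tests, all 2-sided, with Benjamini-Hochberg adjustment within families of 3 and 4 comparisons and a threshold of 0.05. The scripts were tested on simulated data. Intervals on shares of regions cover counting error only.

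Members were named for the listed genes at them, for peaks of both factors in all 6 DP libraries, or as the 5 widest, and 1 such gene is not reported here. Sequence windows by rule were those of listed genes with both factors in at least 2 DP libraries each. Members and lists were chosen with earlier results of these data known. Alternatives were other peak and region definitions, equal peak numbers, other start site sets, libraries left out, clone B12 alone and another denominator, the last 2 being among those chosen after seeing the data, as were equal peak numbers and protein-coding start sites for positions. Experiment letters were not treated as pairs of DP and SOX2+ libraries, since the correlations of their deviations over 7636 regions were 0.0527 (A), 0.00827 (A1) and 0.0349 (B). The title suffix sub02 of the DP GATA6 library A is unexplained and may mean subsampled reads, which would bear on its number of peaks. No peak list of the IgG libraries was used, and 2 histone libraries with conflicting labels entered no comparison.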

Additional observations from a re-analysis of the deposited data

Results flagged for a closer look

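The density of SOX2 maxima at members relative to distal PrE enhancers had a lower mean in DP than in pluripotent cells, a difference between groups that did not pass after adjustment. The log2 of the ratio of densities was -0.933 ± 0.133 (SD, n = 3) in DP and -0.543 ± 0.158 (n = 7) in the pluripotent libraries. The difference of -0.39 had an exact permutation p of 0.0167, the smallest possible, and an adjusted p of 0.0667 over 4 such comparisons.

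Both unassigned libraries, whose title names DP and whose source names SOX2+ cells, had peaks at members. The H3K27ac library of experiment B had a peak at 21.8% of members (317 of 1452, 95% Clopper-Pearson interval 19.7% to 24%) and the H3K4me1 library at 73.4% (1066 of 1452, 71.1% to 75.7%). They entered no comparison.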

How the results depend on the processing

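The number of members was 2431 with a peak in any library, 904 with the stronger 50% of histone peaks and 287 without kept H3K27ac in 2iLIF or NACL, and 1067 to 3265 with a library left out, lowest without 2iLIF H3K4me1 B9 and highest without the second nEnd H3K4me1 library. The DP minus pluripotent SOX2 share was 0.0584 percentage points for the 287 regions (0.182% against 0.123%, ratio 1.47), 0.71 within clone B12, 0.206 over peaks at nEnd enhancers, 0.462 with protein-coding start sites, and 0.446 to 1.01 with a library left out. Without DP A, A1 or B it was 0.725, 0.653 and 1.01 (exact p = 0.111, 0.111 and 0.0556), and 2 against 7 libraries cannot give a p below 0.0556. The DP minus SOX2+ share turned to -0.606 over peaks at nEnd enhancers, was 0.992 with equal peak numbers (exact p = 0.1), 0.0204 for the 287 regions, 0.377 with a peak in any library and 0.288 with protein-coding start sites, and was 0.304 to 0.784 with a library left out. With experiments as a replicate block it was 0.571 (exact p = 0.25, the smallest for 3 pairs), which changed no call. The SOX2 density difference was -0.579 per Mb for the 287 regions against the 690 distal regions also without kept H3K27ac, and turned to 0.843 percentage points as a share of regions, was -0.892 with equal peak numbers, -1.76 with a peak in any library and -2.66 over bases shared by both marks (exact p = 0.00391, 0.00195 and 0.00195), and was -6.04 to -2.55 with a library left out. The GATA6 density difference was -9.13 per Mb with equal peak numbers, -25 over bases shared by both marks and -52.3 to -28.2 with a library left out. The GATA6 position difference turned to -2.52 percentage points with equal peak numbers, and was -0.566 (without nEnd B12) to 1.39 with a library left out. The difference in H3K4me1 between DP and SOX2+ members, 32.3 percentage points, was 41.5 with the stronger 50% and 14.7 with equal peak numbers. The denominator, the clone, and the equal peak numbers and protein-coding start sites for position were chosen after seeing the data. The cause of these changes was not tested. The SOX2 position difference kept its direction and passed the threshold under all 13 alternatives, but was 7.03 percentage points with equal peak numbers (exact p = 0.0371). The GATA6 share difference kept its direction under all 28 (-5.34 to -0.746 percentage points), in a design that cannot reach 0.05. Short DP lists, down to 1378 peaks, limit what could be detected in DP.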

Other observations

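Members also lay at genes of further families. Start sites of 9 of 98 ribosomal protein genes, among them Rpl14, Rpl26 and Rps20, had a member, as did 19 of 394 Zfp zinc finger genes. Of 19 Wnt ligand genes, Wnt11 was the 1 with a member, and of 31 integrin genes Itgb1 and Itgb6 were. Odorant receptor genes had 2 of 1134. As shares these were 9.18%, 4.82%, 5.26%, 6.45% and 0.176%, beside 6.25% of all protein-coding genes, and only the odorant receptors lay far from it.

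Kept H3K27ac in the pluripotent media also went with the marks in KOSR. Of the 923 members with kept H3K27ac in both media, 27.1% (A) and 26.3% (B) had H3K27ac in SOX2+ cells and 75.2% in DP. Of the 287 with it in neither, 0.348% had it in each SOX2+ library and 16% in DP. H3K4me1 in DP was present at 92.4% and 74.9%. GATA6 in nEnd went the other way, with peaks at 63.5% (B9) and 74.6% (B12) of the 923 and at 76.7% and 80.1% of the 287.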
